A study of Saccharomyces cerevisiae with 12 samples.

Results

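The cytosolic ribosomal protein genes of budding yeast were taken by their names. Names that start with RPL or RPS followed by a number and, for duplicated genes, the letter A or B were kept, together with the acidic stalk proteins named RPP. The rule found 138 of the 6412 genes and other features counted. Of these, 137 encode ribosomal proteins, and RPP1 encodes a subunit of RNase P, the enzyme that trims transfer RNA precursors. The 137 genes comprise 56 of the small subunit, 76 of the large subunit and 5 of the stalk. They form 59 pairs of an A and a B copy, which account for 118 genes, and 19 genes have no copy. All 138 passed the filter on low counts, and the lowest count of a ribosomal protein gene in any library was 315.

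A cytosolic ribosome joins a small subunit, which decodes messenger RNA, to a large subunit, which links amino acids, and the stalk of the large subunit recruits the translation factors. Yeast uses a large part of its RNA polymerase II transcription for these proteins and adjusts it to nutrients through the TOR and protein kinase A pathways. Most of their promoters are bound by Rap1, with Fhl1 and its coactivator Ifh1. Most A and B copies stem from an ancient genome duplication, and the proteins of most pairs are identical or nearly so.

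Polyadenylated RNA was sequenced from 3 groups of cells with 4 replicates each, all grown in rich medium with raffinose (2%) and adenine (0.25 mM) and arrested in G1 with the mating pheromone α-factor for 2.5 h. CDK/DDK bypass G1 cells (strain YKR1503) carried galactose-inducible Dpb11, Sld2-T84D and Dbf4, factors of replication initiation whose induction is meant to start DNA replication in G1. They were held for a further 3 h after galactose was added to 2%, and wild-type G1 cells (strain YKR1500) went through the same steps. Wild-type S cells (strain E3087) were washed free of the arrest and collected 30 min later. The study worked with W303 strains. Unless stated otherwise it built them in the background of E3087, which can take up the thymidine analogue EdU. The labels give neither galactose nor a time in it for wild-type S cells. By the labels, strain, galactose treatment, length of the arrest and release from it differ between the S and the G1 groups. Their parts in a difference cannot be told apart. In bulk RNA, fewer cells of a kind and less RNA per cell cannot be told apart either. The labels do not say whether replicates came from separate cultures, so p-values measure only the spread between these libraries.

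Each library held between 8162140 and 10545835 counts on genes. The induced genes matched the labels, with DPB11 at 2251 ± 100.2 CPM (counts scaled to the TMM library size, mean ± SD, n = 4) in bypass cells and 42.9 ± 0.527 CPM in wild-type G1 cells. FUS1, a pheromone-induced mating gene, lay at 1948 ± 45.9 and 1520.1 ± 45.4 CPM in the bypass and wild-type G1 groups and at 20.1 ± 4.39 CPM in S cells, whereas the S-phase histone gene HTA2 lay at 1268 ± 38.6 CPM in S cells and at 45.5 ± 4.45 and 15.2 ± 3.88 CPM in the G1 groups. GAL1, a gene of galactose use, was high in all 3 groups, at 10651 ± 123 CPM in bypass, 9227 ± 577 CPM in wild-type G1 and 9729 ± 288 CPM in wild-type S cells. GAL7 and GAL10 lay at 4476 ± 365 and 7140 ± 292 CPM in S cells, against 4391 ± 242 and 5270 ± 381 CPM in wild-type G1 and 4301 ± 113 and 6066.5 ± 127 CPM in bypass cells. The S libraries were thus about as high at these 3 genes as the galactose-treated ones, or higher. Whether S cells had galactose, and a longer arrest than the labels give, is not known here. Wild-type G1 replicates 1 and 2 stood apart from replicates 3 and 4. Their counts differed by a chi-square of 43.2 to 46.6 per gene, against 2.43 between replicates 1 and 2 and 1.83 between replicates 3 and 4. The same division was present but smaller in the other groups, at 7.33 to 7.96 across and 1.54 and 2.22 within the sets in S cells, and at 3.02 to 3.49 across and 1.52 and 1.49 within in bypass cells. Whether these sets are 2 experiments is not stated in the labels, so the 4 replicates may not be independent. The main results of the G1 comparison are given also for replicates 3 and 4 alone.

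Counts of A and B copies rest on bases that differ between them, because the authors left out reads that map to more than 1 place. Copies are shown here as coding stretches of 60 bases in the S288C reference (R64, the sacCer3 build), the stretch of each pair with the most differences, with differing bases in capitals. RPL9, RPS26 and RPL15 are the pairs whose balance moved most from wild-type G1 to S cells, and RPL1 is the pair with the least unique sequence. RPL9A lies at chr7:227757-227816 and RPL9B at chr14:500194-500253, with 10 differences.
RPL9A: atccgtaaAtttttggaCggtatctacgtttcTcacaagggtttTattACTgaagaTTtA
RPL9B: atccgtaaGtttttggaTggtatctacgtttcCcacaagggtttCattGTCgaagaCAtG
RPS26A lies at chr7:148244-148303 and RPS26B at chr5:424237-424296, with 11 differences.
RPS26A: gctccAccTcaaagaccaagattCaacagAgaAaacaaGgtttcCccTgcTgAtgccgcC
RPS26B: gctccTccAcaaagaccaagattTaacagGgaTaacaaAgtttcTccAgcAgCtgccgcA
RPL15A lies at chr12:201977-202036 and RPL15B at chr13:509735-509794, with 10 differences.
RPL15A: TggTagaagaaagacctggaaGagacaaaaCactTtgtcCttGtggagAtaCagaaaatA
RPL15B: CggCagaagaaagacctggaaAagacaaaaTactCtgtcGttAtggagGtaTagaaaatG
RPL1A lies at chr16:135790-135849 and RPL1B at chr7:254641-254700, and even their most different stretch holds 2 differences.
RPL1A: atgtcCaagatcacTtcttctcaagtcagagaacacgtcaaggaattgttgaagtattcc
RPL1B: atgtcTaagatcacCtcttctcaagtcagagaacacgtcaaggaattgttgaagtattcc
RPL9A, RPS26A, RPL15A and RPL15B are on the minus strand and the other 4 on the plus strand, and each is written 5′ to 3′ along its gene. Over the 54 pairs with copies of equal length, the median identity of the coding sequences was 93.6%, and 0 pairs were identical. The lowest identity was 46.4%, that of the stalk genes RPP1A and RPP1B. Of all windows of 42 bases, the read length, 100% were unique to their gene in RPS26A and RPS26B, 85.0% in both copies of RPL15, 81.7% in both copies of RPL9 and 16.2% in both copies of RPL1. In 34 genes the share was below 80%, and levels of these genes are uncertain.

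Within a group, levels per length differed widely among the 137 genes. RPL41A, which encodes the smallest ribosomal protein, had the highest mean in wild-type G1 cells, 6698 ± 398 TPM (counts divided by coding length and scaled to a common total in each library), ahead of its copy RPL41B at 5340 ± 384 TPM, although only 24.3% of the windows of either are unique. The coding sequences of RPL41A and RPL41B have only 78 bases each, so their TPM depend strongly on the length that counts are divided by. Whether their top rank rests on this short length was not tested. Among genes without the limit of few unique windows, RPL39 stood at 3372 ± 426 TPM and RPS31 at 3255 ± 427 TPM. The levels of RPL39 and RPS31 did not differ beyond their spread. RPL15B was the lowest of the 137 in each group, at 63.8 ± 7.68 TPM in wild-type G1, 55.3 ± 3.22 TPM in bypass and 59.97 ± 4.998 TPM in wild-type S cells. RPL7B and RPL22B were the next lowest in all 3 groups. RPL41A and RPL41B also held the top 2 places in each group.

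Ribosomal protein genes took a larger share of all counts on genes in S cells than in either G1 group. Their share was 15.5%, 15.1%, 14.8% and 15.1% in the 4 wild-type S libraries and 7.28%, 7.40%, 7.58% and 7.41% in the 4 bypass libraries. In wild-type G1 it was 10.2% and 9.85% in replicates 1 and 2, and 7.57% and 7.59% in replicates 3 and 4. All S libraries lay above all G1 libraries, and the bypass libraries lay close to wild-type G1 replicates 3 and 4. The mean share in S cells was 2.04-fold that of bypass cells and 1.72-fold that of wild-type G1 cells. Counts on ribosomal protein genes per spike-in count, a measure set by synthetic RNA put into each RNA sample, were 7.38 ± 0.649 in S, 3.89 ± 0.787 in wild-type G1 and 3.85 ± 0.232 in bypass cells. The ratio of small to large subunit counts varied little and was highest in S cells, at 0.765 ± 0.00284 in bypass, 0.754 ± 0.00481 in wild-type G1 and 0.790 ± 0.00618 in S cells.

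**Figure D1:**
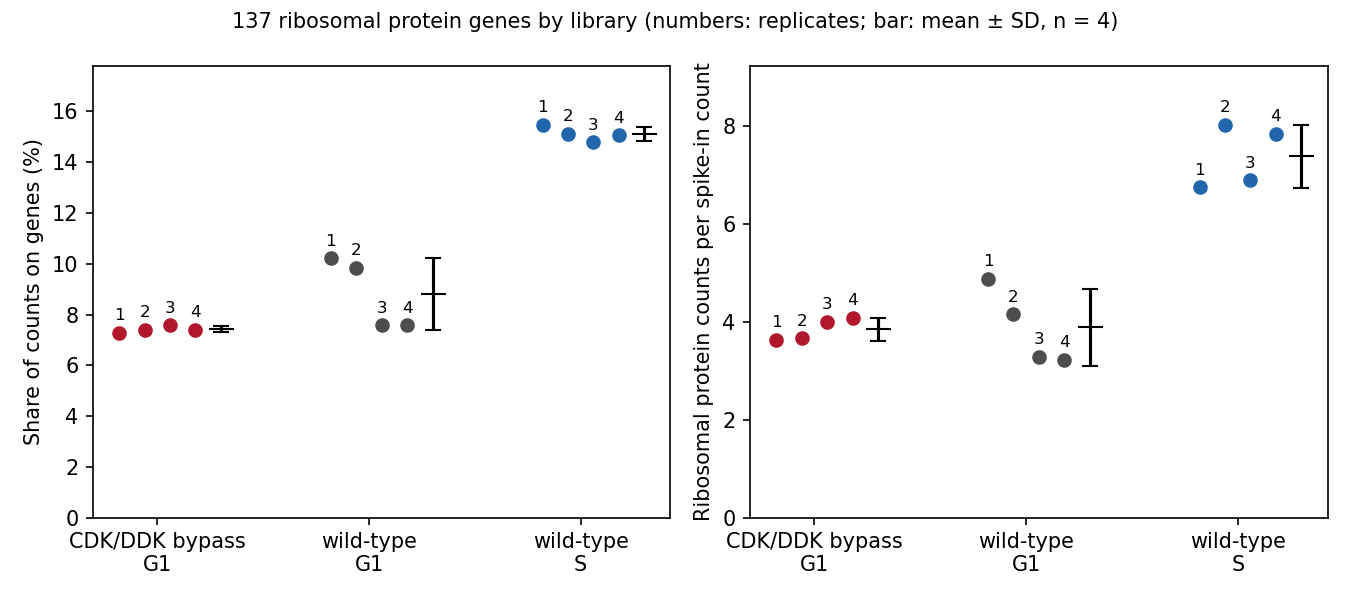
The left panel plots the percentage of counts on genes that fell on the 137 ribosomal protein genes, and the right panel their counts per spike-in count, for each of the 12 libraries. Points are libraries numbered by replicate and bars are the mean ± SD of 4. The S libraries lie highest in both panels, and wild-type G1 replicates 1 and 2 lie above replicates 3 and 4.

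The comparison of wild-type S with wild-type G1 cells sets cells released into S phase beside cells held in the arrest, with the other labelled differences given above. Nearly all ribosomal protein genes were higher in S cells. Of the 137 genes, 136 rose, 0 fell and 1, RPL15B, did not pass the test (edgeR's quasi-likelihood test, Benjamini-Hochberg adjusted p below 0.1). Every estimate was above 0, also with DESeq2, and at an unadjusted p below 0.05 the counts were the same. Among all 5662 genes tested, 83.8% were called, 40.4% higher and 43.3% lower. The median log2 fold change was 0.85, a 1.80-fold difference, against -0.02 over all genes, and 27 genes reached a log2 fold change of 1 or more. All 4 S libraries lay above all 4 wild-type G1 libraries in 136 genes, which 35.8% of all genes did. Against only wild-type G1 replicates 3 and 4 the median log2 fold change was 1.07 with 136 genes called, and against only replicates 1 and 2 it was 0.66 with 137 called. All 56 small subunit genes, 75 of 76 large subunit genes and all 5 stalk genes were called higher, with median log2 fold changes of 0.87, 0.81 and 0.88.

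**Figure D2:**
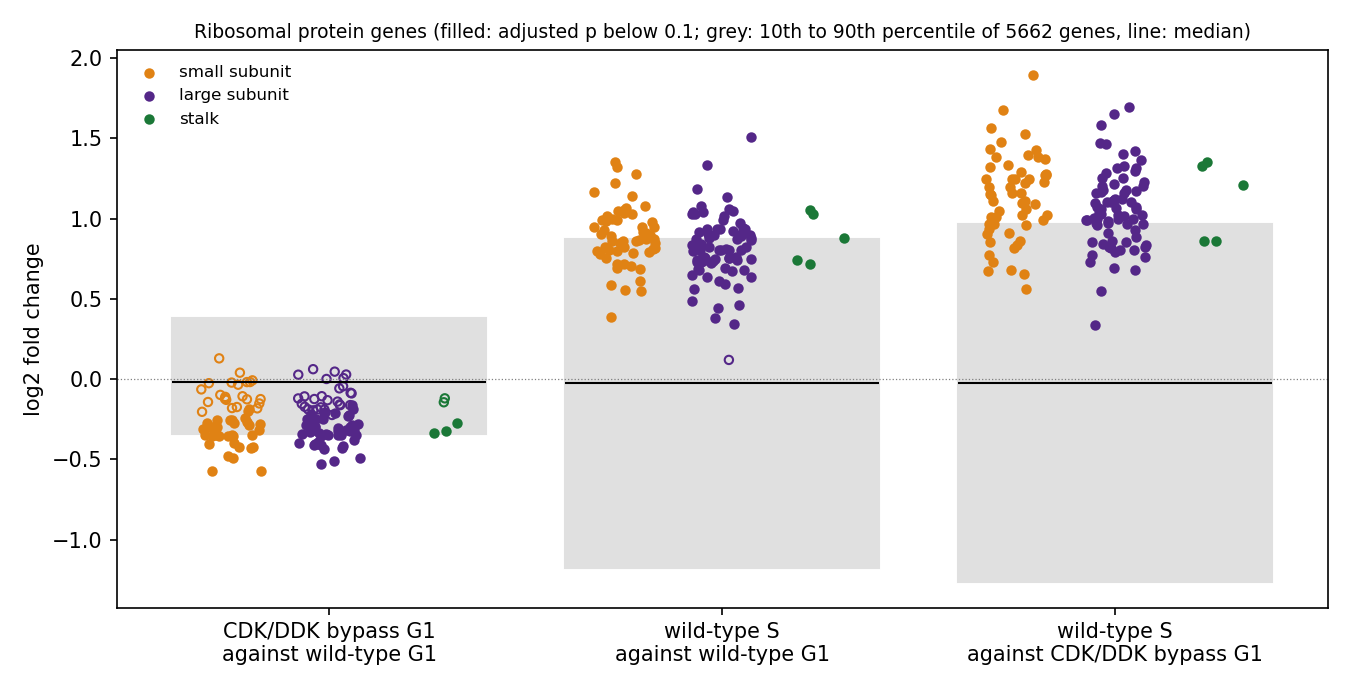
Each point is the log2 fold change of 1 of the 137 genes in 1 of the 3 comparisons, coloured by subunit and filled where the adjusted p-value was below 0.1. Grey boxes span the 10th to 90th percentile of all 5662 genes tested and black lines their median. All but 1 of the genes are called higher in S cells, and the open points lie mainly in the comparison of the G1 groups.

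The largest rise between wild-type G1 and S cells was that of RPL9A, whose protein uL6 lies near the base of the stalk. It stood at 462, 454, 322 and 319 CPM in wild-type G1 and 1118, 1074, 1075 and 1167 CPM in S libraries. All S libraries lay far above all G1 libraries, and the log2 fold change was 1.51 ± 0.11 (SE, edgeR adjusted p = 3.55e-08). RPS26B encodes a copy of eS26, which sits at the exit of the messenger RNA channel. It stood at 354, 355, 214 and 230.3 CPM in wild-type G1 and 778, 736, 696 and 736 CPM in S libraries. The groups did not overlap, and the log2 fold change was 1.35 ± 0.14. RPL18B, RPS21A and RPS22B followed with log2 fold changes of 1.34 ± 0.09, 1.32 ± 0.11 and 1.28 ± 0.07. Each of these 3 genes is a copy of a large or small subunit gene, and each had all S libraries above all G1 libraries.

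RPL15B was the exception. Its product is a copy of eL15 of the large subunit. It stood at 38.6, 35.5, 43.9 and 43.5 CPM in wild-type G1, and at 47.6, 46.8, 42.4 and 38.9 CPM in S libraries. The groups overlapped, with a log2 fold change of 0.12 ± 0.08 (edgeR adjusted p = 0.206). It passed the test, as higher in S cells, without wild-type S replicate 4, without wild-type G1 replicates 3 and 4, and with replicates 1 and 2 of both groups. Its copy RPL15A rose from 1014, 988, 719.8 and 707 CPM in wild-type G1 to 1597, 1557, 1399 and 1445 CPM in S, a log2 fold change of 0.81 ± 0.11. The other small rises were those of RPL41B (0.34 ± 0.06), RPL14B (0.38 ± 0.10), RPS30A (0.39 ± 0.09) and RPL41A (0.45 ± 0.05) on the log2 scale.

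All 5 stalk genes rose in S cells. RPP0 anchors the stalk to ribosomal RNA, and the acidic proteins P1 and P2 bind it as dimers. RPP0 lay at 1612, 1751, 1337 and 1388 CPM in wild-type G1 and 3153, 3146, 3249 and 3111 CPM in S libraries, with no overlap and a log2 fold change of 1.06 ± 0.07. RPP1B rose by 1.03 ± 0.10 and RPP2B by 0.88 ± 0.06 on the log2 scale. The values for RPP1A and RPP2A were 0.74 ± 0.07 and 0.72 ± 0.08. RPP1, which the name rule also took, is no stalk gene and rose from 49.2 to 54.7 CPM in wild-type G1 libraries to 90.7 to 101 CPM in S libraries.

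3 genes encode ribosomal proteins fused to ubiquitin, RPL40A and RPL40B for eL40 and RPS31 for eS31, and supply part of the ubiquitin of the cell. RPS31 lay at 1762, 1728, 1358 and 1324 CPM in wild-type G1 and 2819, 2755, 2703 and 2821 CPM in S libraries, without overlap, a log2 fold change of 0.85 ± 0.09. RPL40B rose by 1.04 ± 0.10 and RPL40A by 0.81 ± 0.09 on the log2 scale. In S cells RPL40A at 1202.5 to 1247 CPM thus stayed above RPL40B at 811 to 832 CPM.

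Several of these genes are known to be held back by their own protein. Rpl30 blocks splicing of its own transcript, and Rps14 and Rpl22 act on the transcripts of RPS14B and RPL22B. RPL30 rose from 707, 652, 520.2 and 527 CPM in wild-type G1 to 1059, 1046, 1129 and 1161 CPM in S libraries, a log2 fold change of 0.87 ± 0.09 with no overlap. RPS14B, at 159, 148, 124 and 124 CPM in wild-type G1 and 217, 216, 197 and 205 CPM in S libraries, rose by 0.59 ± 0.07, and its copy RPS14A by 0.95 ± 0.10 on the log2 scale. RPL22B, at 85.3, 85.0, 60.9 and 54.8 CPM in wild-type G1 and 177, 162, 146 and 144 CPM in S libraries, rose by 1.13 ± 0.13, and RPL22A by 0.92 ± 0.11. The regulated copy thus had the smaller log2 fold change in RPS14 and the larger in RPL22, and the log2 ratio of A to B changed by 0.37 and -0.21, without overlap of the groups. RPL2A and RPL2B, which encode uL2 of the large subunit, rose by 0.70 ± 0.08 and 0.80 ± 0.08 on the log2 scale. Reads of spliced and unspliced transcripts were not separated in the counts.

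Against bypass cells, which were arrested as long as wild-type G1 cells, all 137 genes were higher in S cells, where 85.1% of all genes were called, 41.5% higher and 43.6% lower. The median log2 fold change was 1.09, or 2.13-fold, and 86 genes reached 1 or more. This comparison uses the same S libraries as the one above, so the 2 sets of values are not independent. All 4 S libraries lay above all 4 bypass libraries in each of the 137 genes, against 40.0% of all genes. RPS21A, a copy of eS21 of the small subunit, differed most. It lay at 184, 189, 195 and 189.6 CPM in bypass and 742, 715, 683 and 673 CPM in S libraries, a log2 fold change of 1.89 ± 0.11 (edgeR adjusted p = 3.67e-09). RPL9A (1.70 ± 0.11), RPS22B (1.67 ± 0.07), RPL18B (1.65 ± 0.09) and RPL8B (1.58 ± 0.10) followed on the log2 scale. RPL15B was again the least changed, at 0.34 ± 0.09, and was not called after scaling to spike-in totals or in a test against a fold of 1.2. RPL10, which encodes uL16 and joins the large subunit late in its assembly, was the next lowest at 0.55 ± 0.07.

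Between the G1 groups the differences were small. These groups differ in strain and in the induced factors, and replication was not measured in these RNA libraries. The parts of strain, induced factors and replication in a difference cannot be told apart. Of the 137 genes, 85 were called lower in bypass cells, 0 higher and 52 neither, where 54.5% of all genes were called, 28.5% lower and 26.0% higher. DESeq2 called 84 lower and 0 higher, and at an unadjusted p below 0.05 edgeR gave 0 higher. The genes called lower were 34 of 56 in the small subunit, 48 of 76 in the large subunit and 3 of 5 in the stalk. The median log2 fold change was -0.26 against -0.02 over all genes, and 4 genes fell by 0.5 or more on the log2 scale. In 58 genes all 4 bypass libraries lay below all 4 wild-type G1 libraries, against 21.9% of all genes, and in 0 genes above, against 22.1%. The size of the difference and part of the calls rest on wild-type G1 replicates 1 and 2. In wild-type G1, 136 of 137 genes had replicates 1 and 2 both above replicates 3 and 4, which 36.3% of all genes had, and RPL15B had them below. The same held in 8 genes in bypass, against 22.5% of all genes, and in 83 genes in S libraries, against 25.9%. Replicates 1 and 2 both lay below replicates 3 and 4 in 53 genes in bypass, against 22.5% of all genes. In S libraries they did so in 7 genes, against 27.6%. The median log2 ratio of replicates 1 and 2 to replicates 3 and 4 over the 137 genes was 0.43 in wild-type G1, -0.04 in bypass and 0.05 in S libraries. With replicates 1 and 2 of both groups, 136 genes were called lower and 0 higher, and the median log2 fold change was -0.45. Of all genes, 33.2% were then called lower and 32.9% higher. With replicates 3 and 4 of both groups, 53 were called lower and 50 higher, with a median of -0.02, where 32.3% of all genes were called lower and 31.7% higher. All 53 were among the 85, and the other 32 were not called. All 4 bypass libraries against only wild-type G1 replicates 3 and 4 gave 52 lower and 31 higher, a choice made after seeing the data, against 29.8% and 29.3% of all genes. When counts were summed within replicates 1 and 2 and within replicates 3 and 4, 15 genes were called lower at a median of -0.27, and 12.8% of all genes were. After scaling to spike-in totals, which shifts the median of all genes from -0.02 to 0.20 and their calls from 1470 higher and 1613 lower to 2534 higher and 252 lower, 6 ribosomal protein genes were called lower and 3 higher, with a median of -0.05. Relative to the median of all genes, the median of the ribosomal protein genes was -0.25 under both scalings. A change of scaling moves all genes nearly alike, so this value could hardly change and is no test of the difference. It was -0.45 with only replicates 1 and 2 and -0.01 with only replicates 3 and 4.

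**Figure D3:**
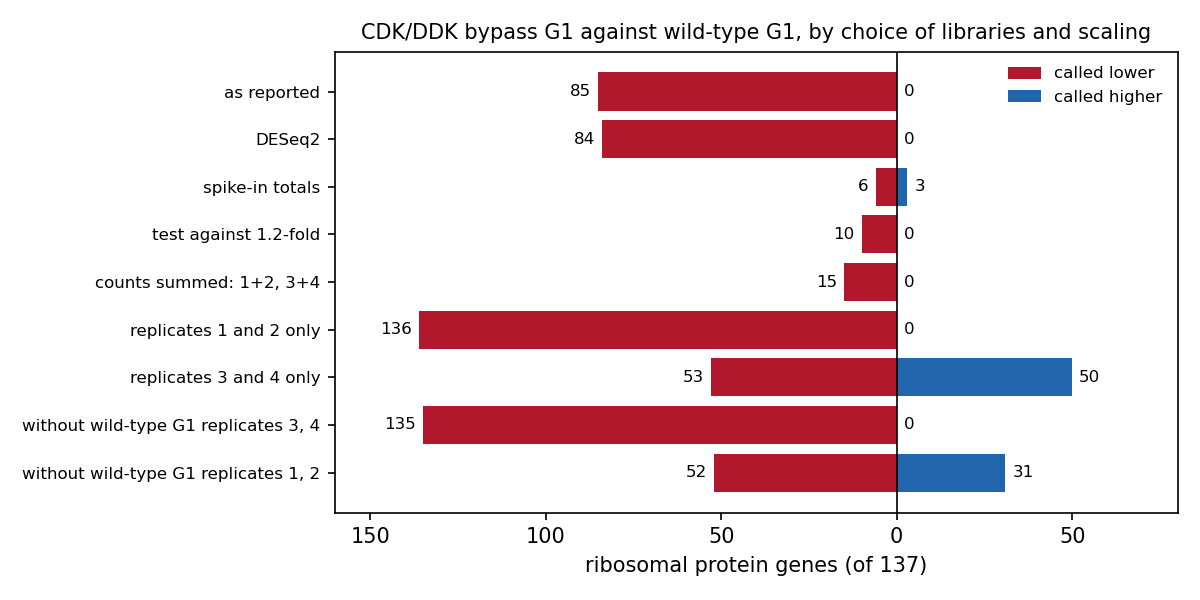
Bars give how many of the 137 ribosomal protein genes were called lower (left) or higher (right) in bypass than in wild-type G1 cells under 9 choices of libraries, scaling and test. The bars run from 136 lower and 0 higher with replicates 1 and 2 to 53 lower and 50 higher with replicates 3 and 4.

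Over all libraries the largest falls in bypass cells were those of RPS19B, RPS21A, RPL6B, RPL9B and RPS28A, copies of eS19, eS21, eL6, uL6 and eS28. RPS19B stood at 477, 496, 513 and 485 CPM in bypass and 870.5, 840.4, 601 and 615 CPM in wild-type G1 libraries. The groups did not overlap, and the log2 fold change was -0.57 ± 0.11 (edgeR adjusted p = 0.000822). RPS28A stood at 312, 309.8, 325 and 308 CPM in bypass and 493, 460.4, 396 and 416 CPM in wild-type G1 libraries. It again had every bypass library below every wild-type G1 library, at -0.49 ± 0.06 on the log2 scale. RPS21A fell by 0.57 ± 0.11, RPL6B by 0.53 ± 0.10 and RPL9B by 0.51 ± 0.11. With only replicates 3 and 4 all 5 were still called lower, at -0.29 for RPS19B, -0.27 for RPS21A, -0.31 for RPL6B, -0.26 for RPL9B and -0.36 for RPS28A, so that RPS28A then had the largest fall of the 5. At the other end stood RPS11A, a copy of uS17, at 775, 791, 792 and 791 CPM in bypass and 839, 823, 603 and 613 CPM in wild-type G1 libraries. Its bypass values lay between the 2 sets of wild-type G1 values, and its log2 fold change was 0.13 ± 0.10 (edgeR adjusted p = 0.292).

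The genes of known role were divided in this comparison. In the stalk, RPP0, RPP1B and RPP2B were called lower at -0.27 ± 0.07, -0.32 ± 0.10 and -0.34 ± 0.06 on the log2 scale, while RPP1A at -0.12 ± 0.07 and RPP2A at -0.14 ± 0.08 were not called. With only replicates 3 and 4, RPP1A and RPP2A were called higher at 0.0842 and 0.0643, RPP0 at -0.11 and RPP2B at -0.17 were still called lower, and RPP1B at -0.07 was not called. RPL40A at -0.32 ± 0.09 and RPL40B at -0.43 ± 0.10 were called lower, and RPS31 at -0.01 ± 0.09 was not, but with only replicates 3 and 4 it was called higher at 0.24, while RPL40A at -0.08 and RPL40B at -0.14 were still called lower. Of the genes known for feedback, RPL30 fell by 0.31 ± 0.09 and RPS14A by 0.27 ± 0.10 over all libraries. With only replicates 3 and 4, RPL30 was called lower at -0.09 and RPS14A, at -0.00314, was not called. RPS14B, RPL22A and RPL22B gave -0.06 ± 0.07, -0.19 ± 0.11 and 0.03 ± 0.13 and were not called, but with only replicates 3 and 4 they were called higher at 0.13, 0.11 and 0.30.

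In S cells both copies of most pairs were called higher, while between the G1 groups only 1 copy of many pairs passed the test. In wild-type S against wild-type G1 cells both copies were called higher in 58 of 59 pairs, and in RPL15 only the A copy was. In S against bypass cells both were called in all 59 pairs. Between the G1 groups both copies were called lower in 22 pairs, 1 copy in 31 pairs and neither in 6. A pass of 1 copy alone does not show that the copies differ. By the rule given below, the ratio of A to B was called different in 0 of 59 pairs between these groups. The A copy held the larger mean share of the counts of a pair in 34 pairs in wild-type G1, 35 in bypass and 36 in wild-type S cells. In wild-type G1 the A share was highest in RPL15 at 95.3% ± 1.28 (SD, n = 4), RPL18 at 87.7% ± 0.616 and RPL22 at 85.0% ± 0.870. It was lowest in RPL36 at 16.9% ± 0.470, RPS9 at 20.4% ± 3.00 and RPL8 at 31.3% ± 2.22. Both copies of RPL15, RPL18, RPL36 and RPL8 have the same number of unique windows, so that dividing by unique length left their shares as they were. In RPL22 and RPS9 it gave 85.1% and 20.2%. RPS9A made up 18.3% and 17.4% of its pair in wild-type G1 replicates 1 and 2 but 23.6% and 22.3% in replicates 3 and 4, so its share also differed between these libraries.

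The balance of a pair was called different between 2 groups where the log2 ratio of A to B did not overlap and its means differed by 0.5 or more. Between the G1 groups 0 of 59 pairs passed, 3 passed for S against wild-type G1 cells, and 8 for S against bypass cells. The same rule, applied to all 16026291 pairs of tested genes, called 19.4%, 61.6% and 66.2%. Without the minimum size, 38, 39 and 49 of the 59 pairs passed, where 41.5%, 72.9% and 81.2% of all pairs of genes did. The median size of the change was 0.16, 0.17 and 0.26 on the log2 scale. With 4 libraries against 4 the smallest exact p-value is 0.0286, which every pair without overlap reaches in the two-sided exact permutation test, and it is not adjusted over the 177 tests.

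**Figure D4:**
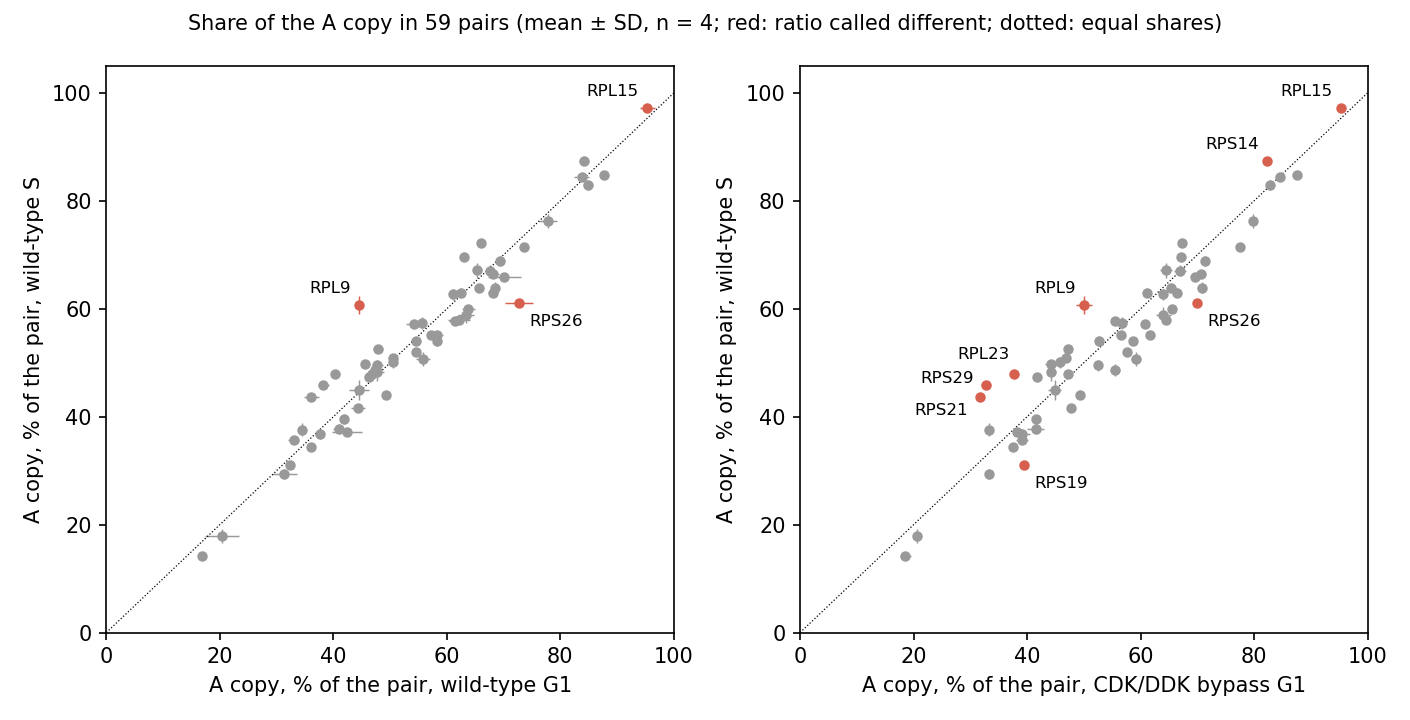
Each point is 1 of 59 pairs, placed by the percentage of its counts that came from the A copy in a G1 group (horizontal) and in wild-type S cells (vertical), as mean ± SD of 4 libraries. Most pairs lie near the dotted line of equal shares, and the 3 pairs on the left and 8 on the right whose ratio was called different are named.

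Of the 59 pairs RPL9 changed most from wild-type G1 to S cells, and its larger copy changed with the group. RPL9A made up 44.7%, 44.4%, 45.2% and 43.9% of the pair in wild-type G1, and 59.3%, 59.5%, 61.2% and 62.7% in S libraries. The A copy was thus the lesser in each wild-type G1 library and the greater in each S library, a change in log2 ratio of 0.94 (exact p = 0.0286, n = 4 and 4). In bypass cells it was 48.5%, 49.2%, 51.3% and 51.2%, between the other groups. Against bypass cells the change in S was 0.62. In CPM, RPL9A and RPL9B stood at 342 ± 14.0 and 340.9 ± 9.002 in bypass cells and at 1108 ± 44.0 and 718.1 ± 39.0 in S cells, means with their SD over 4 libraries.

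RPS26 moved the other way. Its A copy made up 70.8%, 70.4%, 75.4% and 74.0% of the pair in wild-type G1, 70.2%, 69.5%, 70.3% and 69.99% in bypass, and 61.1%, 60.9%, 61.6% and 60.7% in S libraries. Every S library lay below every G1 library, with changes in log2 ratio of -0.77 against wild-type G1 and -0.57 against bypass cells (exact p = 0.0286, n = 4 and 4, for each). RPL15A held 96.3%, 96.5%, 94.2% and 94.2% of its pair in wild-type G1, 95.7%, 95.4%, 95.2% and 95.3% in bypass, and 97.1%, 97.1%, 97.1% and 97.4% in S libraries. The groups did not overlap, and the log2 ratio was higher in S cells by 0.70 and 0.72. With replicates 1 and 2 only, the change in RPL15 against wild-type G1 was 0.30 and was not called.

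The other pairs called between S and bypass cells were RPS29, RPS21, RPL23, RPS14 and RPS19. In RPS29, which encodes uS14, the A copy made up 33.9%, 32.4%, 31.7% and 33.1% in bypass and 45.4%, 46.4%, 46.1% and 45.7% in S libraries, a change in log2 ratio of 0.80. In RPS21 it made up 31.3%, 31.5%, 32.5% and 31.8% in bypass and 44.6%, 44.1%, 43.2% and 43.1% in S libraries, a change of 0.74. RPL23, which encodes uL14, went from 37.7% ± 0.491 to 48.0% ± 0.193, a change of 0.61. In these 3 pairs the smaller copy of the G1 libraries was still the smaller in S cells, but nearer to the larger. RPS14 changed by 0.57, from 82.3% ± 0.426 to 87.3% ± 0.3195, and RPS19 by -0.53, from 39.4% ± 0.278 to 31.0% ± 0.707. RPS19 lay at 32.3% ± 0.639 in wild-type G1, so it did not pass in S against wild-type G1 cells, at -0.09.

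**Figure D5:**
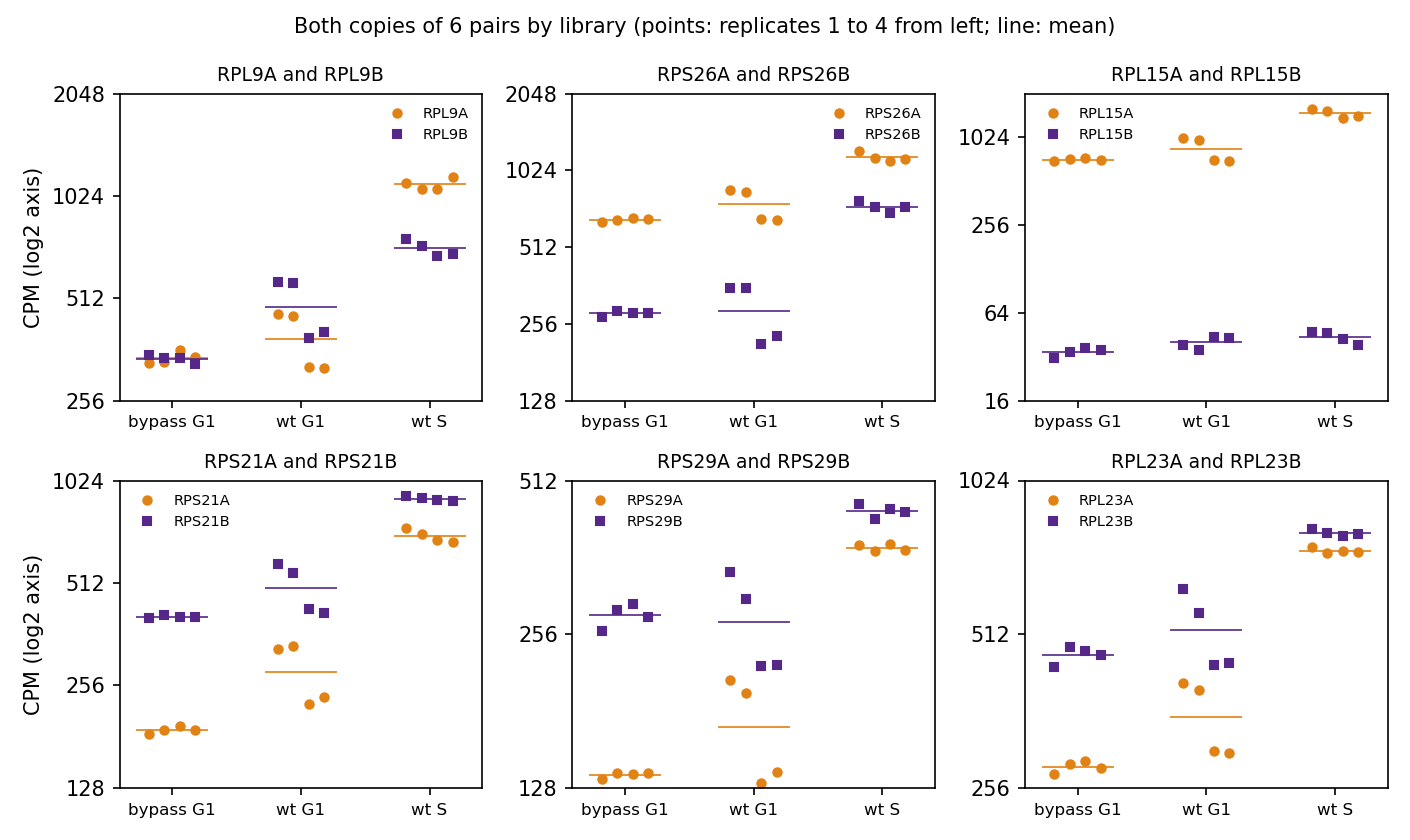
Panels show CPM, on a log2 axis, of both copies of 6 pairs in the 4 libraries of each group, with lines at the means. RPL9A crosses RPL9B between wild-type G1 and S cells, RPS26B and RPL23A approach their copies, and RPL15B stays between 31.7 and 47.6 CPM while RPL15A rises.

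Gene structure and promoter letters separated the genes little. Of the 137 genes, 89 have an intron and 48 do not, and their median log2 fold changes in S against wild-type G1 cells were 0.84 and 0.85. For A copies, B copies and genes without a copy the medians were 0.81, 0.87 and 0.87. Genes with 80% or more unique windows had a median of 0.87 and the other 34 genes 0.77. A strict form of the Rap1 motif, ACACCC and ACA with any 2 bases between, was found on either strand in the 500 bases before the start codon of 19 of 137 genes, or 13.9%, against 0.631% of the other 5863 promoters. The matches lay 164 to 475 bases before the start codon. Median log2 fold changes in S against wild-type G1 cells were 0.82 with a match and 0.85 without. The Abf1 motif, CGT and TGA with any 6 bases between, was found in 17.5% of ribosomal protein and 22.8% of other promoters, the RRPE motif AAAAATTTT in 9.49% and 9.47%, and the PAC motif GATGAG in 21.9% and 28.4%. These motifs were searched on both strands, a promoter counted once for each motif, and a stretch may match more than 1 of them. Examples of Rap1 matches with 20 bases on each side, the match in capitals, are shown for members of pairs described above, and they lie at chr6:65149-65199 (minus strand), chr8:36236-36286 (minus), chr13:650961-651011 (plus) and chr4:222117-222167 (minus), in the order printed.
RPL22B: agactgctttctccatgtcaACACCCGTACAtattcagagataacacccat
RPL8A: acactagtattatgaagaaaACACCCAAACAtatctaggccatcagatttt
RPL36A: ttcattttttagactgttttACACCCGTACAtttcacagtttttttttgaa
RPL41B: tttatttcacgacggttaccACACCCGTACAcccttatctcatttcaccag
The copies RPL22A, RPL8B, RPL36B and RPL41A held no such letters in the same window. A match is a description of letters and not a measured binding site.

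Regulators of these genes did not move in 1 direction. Of 12 listed genes, 4 were higher and 5 lower in S than wild-type G1 cells, 3 higher and 7 lower than in bypass cells, and 6 higher and 2 lower in bypass than in wild-type G1 cells. Of all genes, 40.4% were higher and 43.3% lower in the first of these comparisons, 41.5% and 43.6% in the second, and 26.0% and 28.5% in the third. In the third, with only replicates 3 and 4, IFH1 at 0.34 and TOD6 at 0.53 were also called higher and SFP1 at -0.10 lower. CRF1, called lower over all libraries, was then not called, at -0.06. Without wild-type G1 replicates 3 and 4, TOD6 was instead called lower, at -0.77. RAP1, the general factor of these promoters, lay at 74.5 to 82.4 CPM in wild-type G1, 77.6 to 83.1 CPM in bypass and 190.2 to 201 CPM in S libraries, and was higher in S by 1.30 ± 0.04 on the log2 scale (edgeR adjusted p = 7.40e-12). FHL1 was higher by 0.81 ± 0.07, and IFH1, at -0.10 ± 0.11, was not called. SFP1, an activator of ribosomal genes, was lower in S by 0.56 ± 0.05. STB3, a repressor of ribosome biogenesis genes through the RRPE motif, was higher in bypass than in wild-type G1 cells by 0.43 ± 0.07 (0.29 with only replicates 3 and 4) and lower in S than in wild-type G1 cells, at -0.30 ± 0.07.

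Dedicated chaperones protect single ribosomal proteins on their way into the ribosome. Of 8 listed, 6 were higher and 0 lower in S than in wild-type G1 cells, with all 8 estimates above 0, and all 8 were higher in S than in bypass cells, where 40.4% and 41.5% of all genes were higher. BCP1, the chaperone of Rpl23, rose by 0.79 ± 0.08 and RRB1, that of Rpl3, by 0.76 ± 0.12 on the log2 scale. TSR2, the chaperone of Rps26, was lower in bypass than in wild-type G1 cells, at 61.0 to 65.4 against 79.6 to 109 CPM, a log2 fold change of -0.55 ± 0.09, or -0.36 with only replicates 3 and 4. ASC1, a scaffold protein bound to the small subunit, was higher in S than in wild-type G1 cells by 1.51 ± 0.11. STM1, which binds idle ribosomes, was higher in bypass than in wild-type G1 cells by 0.44 ± 0.06 (0.58 with only replicates 3 and 4) and in S than in wild-type G1 cells by 0.76 ± 0.06.

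Genes named like those of the mitochondrial ribosome and of ribosome assembly were set beside the cytosolic ribosomal proteins. The first are called mitochondrial here by name alone, so a gene such as MRP8 need not encode a mitochondrial ribosomal protein. Of 55 genes named MRP, MRPL or MRPS, 54 were higher in S than wild-type G1 cells, with a median log2 fold change of 0.70, and MRP8 was lower. Of 62 ribosome biogenesis genes taken by name, 46 were higher and 3 lower, with a median of 0.40, the 3 being RRP43, RRP6 and UTP7. Of all genes, 40.4% were higher and 43.3% lower. The biogenesis result depended on the libraries. With only replicates 1 and 2, 39 were higher and 9 lower at a median of 0.14, against 41.4% and 41.9% of all genes. With only replicates 3 and 4, 59 were higher and 1 lower at a median of 0.82, against 41.5% and 44.5%. The mitochondrial genes stayed at 54 higher and 1 lower in both. Between the G1 groups, 24 of the mitochondrial genes were lower and 4 higher in bypass cells, with a median of -0.16, and 6 of the biogenesis genes were lower and 4 higher, with a median of -0.06, where 28.5% of all genes were lower and 26.0% higher. With only replicates 3 and 4, 16 mitochondrial genes were lower and 13 higher, with a median of -0.04. The biogenesis genes turned with these libraries, with 2 lower and 44 higher at a median of 0.22 in replicates 3 and 4, and 50 lower and 1 higher at a median of -0.26 in replicates 1 and 2.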

How the data were processed

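The authors aligned the reads to sacCer3 with STAR 2.7.10a and deposited counts per gene for 12 samples, made by htseq-count of HTSeq 2.0.1, strand-specific, with reads mapping to several places left out and no normalization. Counts were tested with edgeR 4.0.16 (R 4.3.3), with filterByExpr at a minimum count of 10, TMM, and glmQLFit and glmQLFTest over all 12 samples. Genes were called where the p-value, adjusted by Benjamini-Hochberg over 5662 genes, was below 0.1. CPM use TMM-scaled library sizes. Ratios of copies used log2 of counts plus 0.5. Members were matched to the R64 annotation for position, introns and unique windows. The step was tested on simulated data of 5646 genes for bypass against wild-type G1: of 50 genes changed 1.25-fold, 28 were recovered, and of 50 changed 2-fold, 45. In addition, 15 unchanged genes were called. The simulated libraries were drawn independently, without the division between replicates 1 and 2 and replicates 3 and 4. These figures therefore do not describe how the test behaves on the real libraries. Named genes were the 5 largest rises and falls past the threshold in each comparison, the stalk, ubiquitin-fusion and feedback genes with copies, the pairs with extreme shares or ratio changes, and listed regulators and chaperones. RPS14, RPS19 and RPS26 in the comparison with bypass cells, RPL15B, RPL41A, RPL41B, RPL14B, RPS30A, RPL10, RPS11A, the genes of high or low TPM, MRP8, RRP43, RRP6 and UTP7 were added after their values were seen. Members and lists were chosen with earlier results of these data known. Alternatives were DESeq2 1.42.0, other normalizations, filters and thresholds, the replicate block and subsets of libraries. Protein sequences were not used here.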

Additional observations from a re-analysis of the deposited data

Results flagged for a closer look

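Of 117 groups of 4 libraries examined for a value far from the other 3, covering the shares of counts, the CPM of named genes and the A shares of named pairs, 2 stood apart, and chance alone gives about 1 in 20. RPL2A had 682 CPM in replicate 1 of the bypass cells and between 706 and 711 CPM in the other 3 bypass libraries. The A share of RPL15 was 97.4% in wild-type S replicate 4 and 97.1% in each of the other 3 S libraries, the library without which RPL15B was called higher in S cells.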

How the results depend on the processing

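In wild-type S against wild-type G1 cells, 136 or 137 genes were called under each alternative run, and also in S against bypass cells. In the latter, the median log2 fold change moved from 1.09 to 1.04 with library totals, 0.95 with spike-in totals and 1.04 with only replicates 3 and 4. In bypass against wild-type G1 cells the 85 calls, all lower, became 6 lower and 3 higher, 9 in all, with spike-in totals, 10 in a test against a fold of 1.2, 15 with counts summed in twos, 136 with replicates 1 and 2 only, and 53 lower and 50 higher with only replicates 3 and 4. Of all genes, 4.45% were lower and 44.8% higher with spike-in totals. In the test against a fold of 1.2, 6% of all genes were lower, and with summed counts 12.8%. The 10 and 15 calls thus lie near the share of all genes. Fits added once the data had been seen gave, without wild-type G1 replicates 1 and 2, 52 lower and 31 higher, and without replicates 3 and 4, 135 lower. Of all genes, 29.8% were lower and 29.3% higher in the first of these fits, and 32.6% were lower in the second. Leaving out 1 library at a time gave 67 to 111 lower and 0 to 1 higher, where 24.5% to 29.4% of all genes were lower. The cause was not tested. DESeq2 gave 84 lower. Deviations of same-numbered libraries correlated at -0.03 to 0.20, so the numbers were not taken as pairs, and the replicate block gave 87 lower, 136 and 137 calls, medians of -0.25, 0.85 and 1.09, and 0, 3 and 8 pairs. With replicates 3 and 4 only, RPL22A (0.11), RPL2A (0.0709), RPP1A (0.0842), RPP2A (0.0643), RPS14B (0.13) and RPS31 (0.24) turned to higher in bypass cells, as did RPS31 (0.19) without wild-type G1 replicates 1 and 2. RPL22B turned to lower, at -0.19 with replicates 1 and 2 only and -0.21 without wild-type G1 replicates 3 and 4. Mean shares of counts in bypass, wild-type G1 and S cells were 7.42%, 8.80% and 15.1%, as shares of TPM 16.2%, 18.96% and 29.1%, over unique length 23.5%, 27.2% and 38.1%, and with spike-ins in the total 7.28%, 8.61% and 14.8%. Pairs called were 38, 39 and 49 by no overlap alone and 0, 0 and 0 at a minimum size of 1. Genes with few unique windows, such as RPL1A, RPL1B, RPL35A and RPL35B, are limited by the exclusion of multi-mapping reads.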
